A study of Mus musculus with 9 samples.

Results

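Transcript levels of 10 immediate early genes were examined in 9 mouse embryonic stem cell (mESC) lines. The genes were Fos, Fosb, Jun, Junb, Egr1, Egr2, Egr3, Ier2, Ier3 and Atf3, and they were taken by symbol from the annotation of the array. All 10 of the 10 listed genes were found, each represented by a single transcript cluster, the probe set of that gene, among 19938 genes that have a cluster of their own. The list was chosen by measured values, since it was drawn up after Fos and Fosb had been seen to set 1 line, KAA2, apart in these same arrays. The members were also chosen partly for varying between lines. The height of KAA2 and the spread among lines are therefore given as descriptions and not as independent evidence.

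All lines were derived on C57BL/6 background, were labelled female and were measured once, with 3 lines per group. The control lines, mESCFB (FB1, FB2 and FB3), were made from blastocysts that had developed in vivo after mating and were flushed from the tract. For mESCKAA (KAA1, KAA2 and KAA3) fertilization and growth to the blastocyst took place in vitro, in KSOM plus amino acids at 5% O2. For mESCWM (WM1, WM2 and WM3) they took place in Whitten's medium at 20% O2. Fertilization and culture thus changed together against mESCFB, and medium and O2 changed together between mESCKAA and mESCWM. These factors cannot be told apart in this design. The females of every group had been given gonadotropins. Each line started from a single blastocyst on feeder fibroblasts in a shared medium with serum, LIF and 2i (the MEK inhibitor PD0325901 and the GSK3 inhibitor CHIR99021), was later moved from feeders to gelatin, and was collected at the eighth passage. The embryo culture therefore lay several passages before the RNA was taken. Whether the lines of a group shared parents, and whether 2i was kept up to collection, is not given in the sources used here, so p-values measure the spread between these lines.

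Immediate early genes are transcribed within minutes of a stimulus without the need for new protein. Growth factor signaling through ERK acts on serum response factor and its ETS partners at CArG boxes, and cAMP or stress signals act on CREB at cAMP response elements. Fos and Jun proteins pair through leucine zippers to form AP-1, the Egr proteins bind GC-rich sites through zinc fingers, and many of the transcripts decay quickly. In mESCs the ERK pathway is known for promoting exit from the naive state, which is why its inhibitor is part of 2i.

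Promoter sequences are shown for Fos and Fosb, the members with the largest range over the lines, for Junb of the Jun family and for Egr2. Among the members with a promoter window here, Egr2 was the only one with a match to the CArG box. The promoter windows of RefSeq (GRCm38.p6, from 250 bases before to 50 bases after a start) include 7 of the 10 members in 11 windows: Fos, Fosb, Jun, Junb, Egr2, Ier3 and Atf3. Each line gives the 150 bases before the start, 5′ to 3′ on the strand of the gene. They lie at chr12:85473740-85473889 (plus strand) for Fos, chr7:19310046-19310195 (minus strand) for Fosb, chr8:84978749-84978898 (minus strand) for Junb and chr10:67537416-67537565 (plus strand) for Egr2, which has 5 windows and is shown by the first that holds a CArG box. Capitals mark TGACG in Fos, Fosb and Junb, TATAAA in Fos, GCGNGGGCG in Fosb and the CArG box in Egr2.
Fos: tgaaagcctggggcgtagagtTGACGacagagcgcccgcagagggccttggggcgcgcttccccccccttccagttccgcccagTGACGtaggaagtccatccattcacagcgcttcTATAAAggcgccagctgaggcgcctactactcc
Fosb: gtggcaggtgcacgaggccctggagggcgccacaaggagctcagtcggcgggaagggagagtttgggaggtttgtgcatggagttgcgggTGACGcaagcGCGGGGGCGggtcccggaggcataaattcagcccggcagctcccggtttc
Junb: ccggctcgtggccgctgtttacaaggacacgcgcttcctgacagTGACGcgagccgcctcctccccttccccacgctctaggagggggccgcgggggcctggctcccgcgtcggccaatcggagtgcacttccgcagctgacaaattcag
Egr2: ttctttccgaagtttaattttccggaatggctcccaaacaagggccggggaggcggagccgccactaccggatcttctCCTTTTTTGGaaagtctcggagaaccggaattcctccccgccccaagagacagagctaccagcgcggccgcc

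The core of the cAMP response element, TGACG (either strand), was found in the windows of 5 of the 7 genes, at positions -129 and -66 in Fos, -60 in Fosb and -106 in Junb, and also in Atf3 and Egr2. It is present in 20.8% of all 32851 windows of that length. The Egr motif GCGNGGGCG was found in Fosb at -50 (5.55% of all windows). The CArG box was found in Egr2 and in none of the other 6 genes with a window (1.63% of all windows, either strand). The full element TGACGTCA, which contains TGACG on both strands, and the AP-1 motif TGANTCA were in none of the 11 windows (1.79% and 7.81% of all windows). TATAAA on the strand of the gene was found in Fos at -33 and in Junb at 1 (8.32% of all windows). The match in Junb thus lies past the stretch shown and not before the start. These are matches of letters in a short window and not sites of binding, and the lack of a match speaks only of these windows.

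The Fos family varied more between lines than any other members. Fos, a partner in AP-1 and the classical marker of recent stimulation, was at 5.64, 5.11 and 5.55 in FB1, FB2 and FB3, at 5.32, 8.09 and 5.59 in KAA1, KAA2 and KAA3, and at 6.51, 5.74 and 5.61 in WM1, WM2 and WM3 (log2 levels). KAA2 stood 1.58 above the next line, WM1, and the other 7 lines lay within 5.11 to 5.74. Fosb, a paralog of Fos that also pairs with Jun proteins, was at 4.80, 5.14 and 5.30 in mESCFB, at 4.99, 7.94 and 5.67 in mESCKAA, and at 5.38, 5.29 and 5.19 in mESCWM. Here the gap between KAA2 and the next line was 2.27, and WM1 was not set apart. Relative to the mean of the other 8 lines, KAA2 was higher by 2.72 for Fosb and 2.46 for Fos, the first and second largest such values among 23410 tested clusters, of which 29 reached 1. The list was drawn up after these genes had been seen to set KAA2 apart, so their ranks are a description and not evidence.

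The Jun genes, which encode the other partners in AP-1, showed the same line on top with smaller distances. Jun was at 6.82, 6.60 and 6.79 in mESCFB, at 6.80, 7.43 and 6.75 in mESCKAA, and at 7.13, 6.61 and 6.76 in mESCWM. Junb was at 6.41, 6.64 and 6.71 in mESCFB, at 6.56, 7.26 and 6.62 in mESCKAA, and at 7.06, 6.40 and 6.58 in mESCWM. For both genes KAA2 was highest and WM1 next, and the 3 groups overlapped. The distance of KAA2 from the mean of the other 8 lines was 0.65 for Jun and 0.64 for Junb.

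Among the Egr zinc finger factors, Egr1 and Egr2 followed this order in part and Egr3 did not. Egr1, a direct target of ERK signaling, was at 8.23, 7.28 and 7.66 in mESCFB, at 7.60, 8.73 and 7.58 in mESCKAA, and at 8.51, 7.88 and 7.45 in mESCWM. The highest lines were KAA2, WM1 and FB1, so that each group held a high line and a low one. Egr2 was at 4.68, 4.10 and 4.25 in mESCFB, at 4.11, 5.21 and 4.34 in mESCKAA, and at 4.34, 4.26 and 4.34 in mESCWM. Its mean over the 9 lines, 4.40, was below the median of the mean levels of all tested clusters (4.67), and KAA2 was the line farthest above that median. Egr3 ran from 5.06 to 5.41 over the 9 lines, the narrowest range of the members, and KAA2 was near the middle at 5.29.

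Atf3, a stress-induced factor of the ATF and CREB family that can pair with Jun proteins, was at 7.77, 6.76 and 7.06 in mESCFB, at 7.72, 8.40 and 7.17 in mESCKAA, and at 7.74, 7.40 and 7.44 in mESCWM. KAA2 was highest by 0.63, and FB1, WM1 and KAA1 followed at nearly equal levels, so that lines of all 3 groups were again mixed. The Ier genes behaved differently. Ier2, a nuclear regulator of transcription, was at 8.31, 8.13 and 8.12 in mESCFB, at 8.22, 8.45 and 8.12 in mESCKAA, and at 7.91, 8.03 and 7.62 in mESCWM. Its 3 mESCWM lines lay below all 6 other lines. Ier3, which protects cells from apoptosis and is tied to ERK signaling, was at 7.87, 8.08 and 8.16 in mESCFB, at 7.87, 7.66 and 8.18 in mESCKAA, and at 8.63, 8.02 and 8.54 in mESCWM. KAA2 was the lowest line for Ier3, and WM1 and WM3 were the highest.

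**Figure D1:**
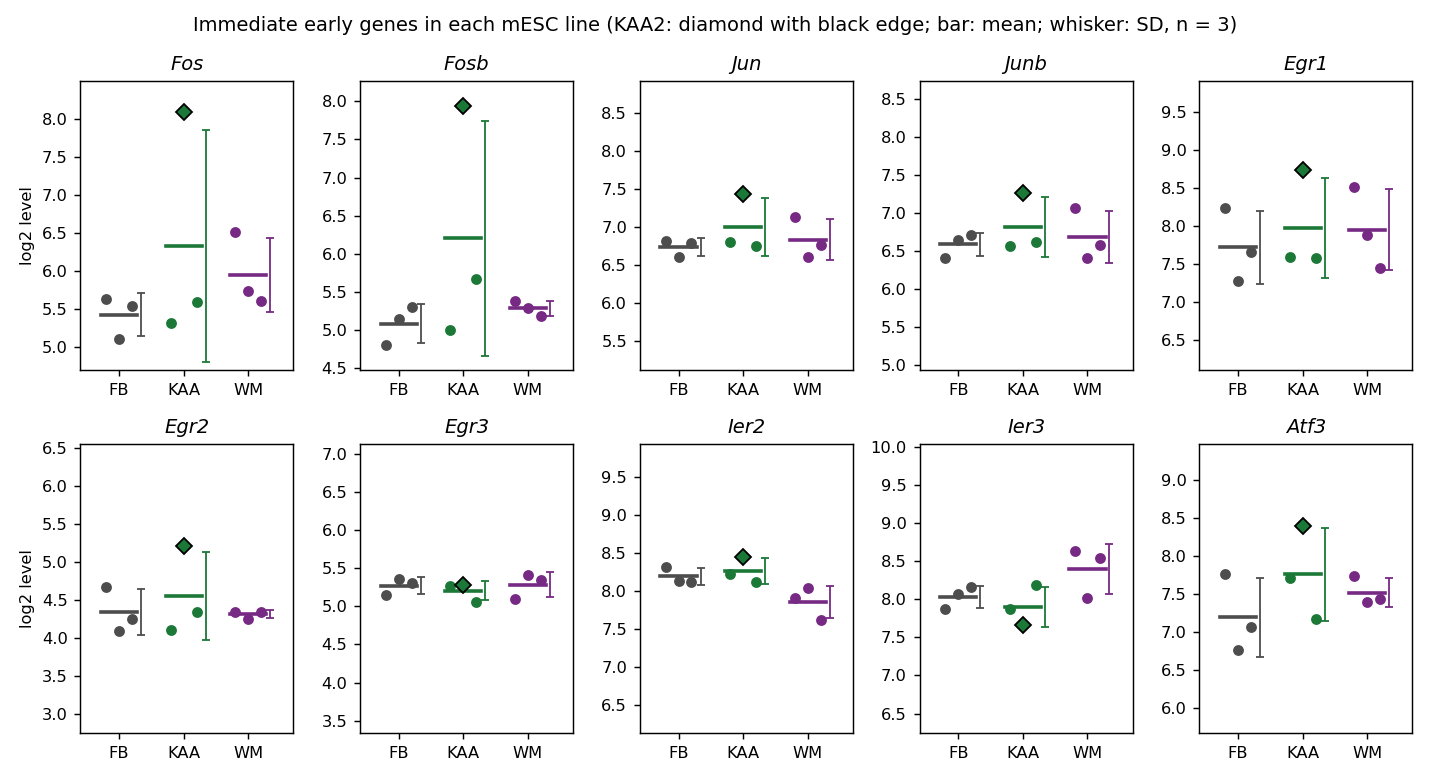
Log2 level of each of the 10 genes (vertical axis) in the lines of mESCFB, mESCKAA and mESCWM (horizontal axis, FB, KAA and WM). Points are lines, bars are group means and whiskers are the SD (n = 3 lines); all panels span the same number of log2 units, and KAA2, the diamond, is highest for 8 of 10 genes.

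KAA2 had the highest level of the 9 lines for 8 of the 10 members, WM1 for Ier3 and WM2 for Egr3. Over all tested clusters, KAA2 was the highest line for 15.0% and WM1 for 13.0%. The mean deviation of the members from their own means over the 9 lines was 0.82 in KAA2 and 0.21 in WM1, and ran from -0.30 in FB2 to -0.06 in FB1 over the other 7 lines. FB2 was the lowest line for 5 members, Fos, Jun, Egr1, Egr2 and Atf3. The count of 8 was the same with quantile normalization and with median centring of the arrays.

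**Figure D2:**
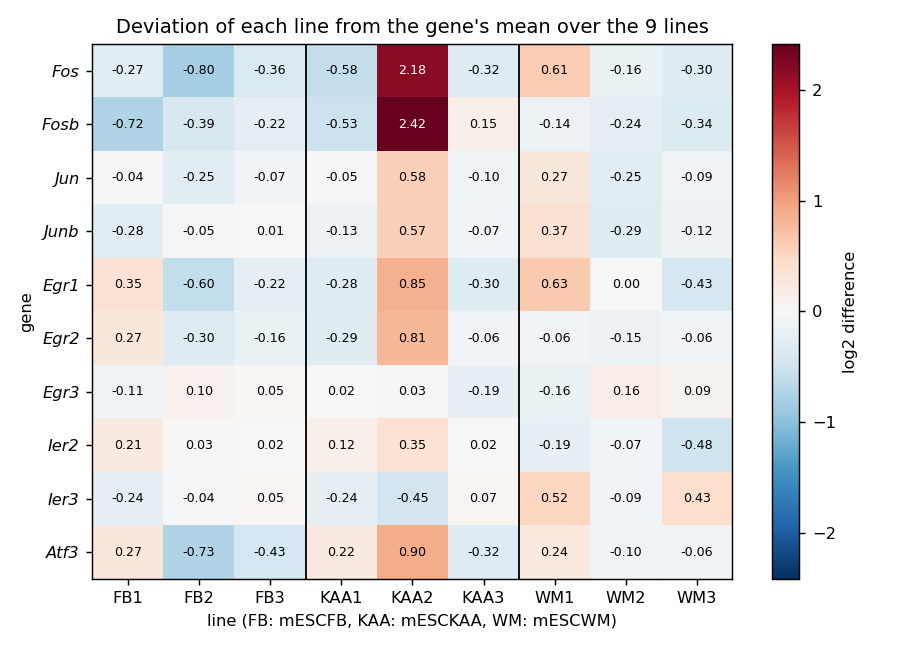
Deviation (log2) of each line, in columns, from the mean of each gene over the 9 lines, in rows, with red above and blue below that mean. The column of KAA2 is the reddest, with 2.42 for Fosb and 2.18 for Fos, while Ier3 is at -0.45 in it.

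The labels give all lines as female, and the Y-linked gene Eif2s3y was at 4.78 in FB1, 3.72 in KAA2 and 5.19 in WM3, against 1.77 to 2.20 in the other 6 lines. Y-linked Uty was also highest in these lines, at 2.63 in FB1, 3.1 in KAA2 and 4.42 in WM3. Y-linked Kdm5d was not, at 1.96 in KAA2, 2.04 in FB1 and WM3 and up to 2.46 in WM2. Xist, which is expressed from an inactive X, was at 2.53 to 3.95 over the 9 lines. The study sexed its lines by PCR for SRY and took only female ones for the arrays. No line was given another sex here from these levels. In Fos, FB1 and WM3 were at 5.64 and 5.61, against 8.09 in KAA2. Each comparison between groups was therefore made also without KAA2 and without all 3 lines. Limma's array weights, which fall where an array departs from its group over all clusters, ran from 0.73 in KAA2 and 0.76 in FB1 to 1.93 in FB3.

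The spread among the lines of a group was large for most members. The SD of mESCKAA was 1.53 for Fos and 1.54 for Fosb (n = 3 lines), and without KAA2 the remaining lines of this group were at 5.32 and 5.59 for Fos. In mESCFB the largest SDs were 0.52 for Atf3 and 0.48 for Egr1, and in mESCWM 0.53 for Egr1 and 0.49 for Fos. By contrast, the SD of Egr2 in mESCWM was 0.05 and that of Fosb 0.10. The median SD of all tested clusters was 0.12 in mESCFB, 0.13 in mESCKAA and 0.13 in mESCWM, against 0.20, 0.48 and 0.24 for the median of the members.

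Pooled over the groups, the SD within groups was 0.94 for Fos, 0.90 for Fosb, 0.56 for Egr1, 0.47 for Atf3, 0.38 for Egr2 and 0.31 for Junb. These 6 of the 10 members lay above the 90th percentile of all tested clusters (0.30), which 10% of clusters exceed by construction. The members were picked partly for such variation, so this count is a description and not evidence that these genes vary unusually. Jun (0.28), Ier3 (0.26) and Ier2 (0.17) lay above the median of all clusters (0.16), and Egr3 (0.14) lay below it. Without KAA2, 3 members remained above the 90th percentile of that set, namely Egr1 (0.45), Atf3 (0.39) and Fos (0.37), while Fosb fell to 0.28. The groups accounted for 5.65% of the squared deviations of Egr1 over the 9 lines, 19.0% for Fos and 30.4% for Fosb, and for 62.4% for Ier2 and 49.3% for Ier3. With 3 lines per group, some share lies between groups even where groups do not differ. The share over all tested clusters was not computed, so these values are descriptions.

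**Figure D3:**
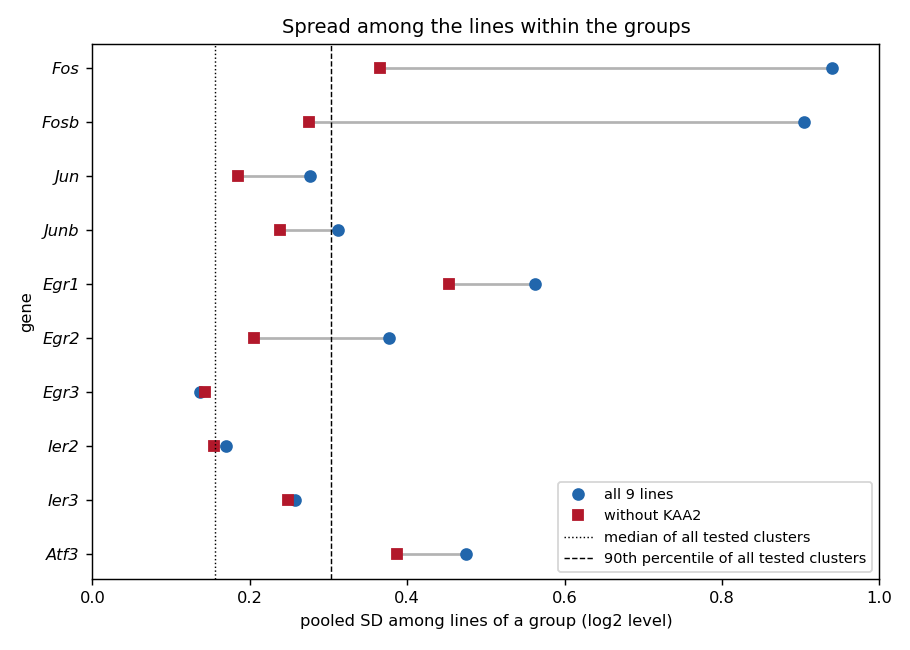
Pooled SD among the lines of a group (horizontal axis, log2 level) for each gene, with all 9 lines (circles) and without KAA2 (squares). The vertical lines are the median (0.16) and the 90th percentile (0.30) of all tested clusters with all lines; Fos and Fosb move most, from 0.94 to 0.37 and from 0.90 to 0.28.

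To ask whether fertilization in vitro and culture in optimal conditions together left a trace in these genes, mESCKAA was compared with mESCFB. Fosb was at 5.08 ± 0.26 (SD, n = 3 lines) in mESCFB and at 6.20 ± 1.54 (SD, n = 3) in mESCKAA, so that mESCKAA was higher by 1.12 on the log2 scale (standard error 0.62, limma adjusted p = 0.918). Fos was at 5.43 ± 0.28 and 6.34 ± 1.53 (SD, n = 3 each) and differed by 0.91 (standard error 0.64, limma adjusted p = 0.918), and Atf3 differed by 0.56 (standard error 0.33). The differences of the other 7 members ran from -0.13 for Ier3 to 0.26 for Jun. By limma, 0 of 10 members passed an adjusted p under 0.05 and 0 had an unadjusted p under 0.05, where 0% of the 23410 tested clusters passed and 1126 had an unadjusted p under 0.05. By the rank product, the test named in the study's methods, 0 members passed a percentage of false positives (pfp) under 0.05, where 0.0128% of clusters passed as higher and 0.124% as lower. The lowest pfp of a member was 0.113, for Fosb.

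The difference was above 0 for 8 of 10 members, with a median of 0.24, against 0.0067 for all tested clusters, of which 52.4% were above 0. This median was -0.0017 without KAA2 and 0.069 without FB1, KAA2 and WM3. Without KAA2 the difference was 0.028 for Fos and 0.25 for Fosb, and those of Egr1 (-0.13), Egr2 (-0.11) and Ier2 (-0.018) changed sign. Without KAA1, which leaves KAA2 and KAA3 in the group, Fosb passed the rank product as higher (pfp 0.015) and differed by 1.72, where 0.00854% of clusters passed as higher and 0.111% as lower. That call rests on KAA2, the line for which the list was drawn up. For 0 members did the lines of the groups not overlap, a state that 4.38% of tested clusters reached as higher and 3.70% as lower.

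The comparison of mESCWM with mESCFB addresses fertilization in vitro and the suboptimal culture together. Ier2 was at 8.19 ± 0.11 (SD, n = 3 lines) in mESCFB and at 7.85 ± 0.21 (SD, n = 3) in mESCWM, which gives a log2 difference of -0.33 (standard error 0.13, limma unadjusted p = 0.031 and adjusted p = 0.819). Ier2 was the 1 member of 10 whose lines did not overlap, where 4.55% of all tested clusters did not overlap and were lower and 3.58% were higher. Ier3 was at 8.04 ± 0.15 and 8.40 ± 0.33 (SD, n = 3 each), and differed by 0.36 (standard error 0.19, limma adjusted p = 0.819). WM2, at 8.02, lay within the mESCFB lines, so that WM1 and WM3 carried it. Fos differed by 0.52 (standard error 0.64) and Atf3 by 0.32 (standard error 0.33), and the remaining members by -0.027 to 0.23. By limma 0 of 10 members passed (0% of tested clusters; 1380 at an unadjusted p under 0.05), and by the rank product 0 of 10 did (0.00427% of clusters higher, 0.0854% lower).

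The median difference of the members in mESCWM was 0.15, with 8 of 10 above 0, against 0.0046 for all tested clusters, of which 51.6% were above 0. It was 0.033 without WM1 and 0.082 without FB2. Without WM1 the differences of Jun (-0.051), Junb (-0.096) and Egr1 (-0.054) changed sign and that of Fos was 0.25. Without FB2 the differences were 0.029 for Jun, 0.0041 for Egr1 and 0.36 for Fos, and without FB1 that of Junb was 0.0074. Without FB1, KAA2 and WM3 the differences were 0.80 for Fos (limma adjusted p = 0.532), 0.73 for Egr1 (limma adjusted p = 0.476) and -0.15 for Ier2.

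Between the IVF groups, Ier2 and Ier3 had the smallest p of the members, with differences of opposite sign, and neither passed. Ier2 was at 8.26 ± 0.17 (SD, n = 3 lines) in mESCKAA, 0.41 above mESCWM (log2 difference -0.41, standard error 0.13, unadjusted p = 0.012, adjusted p = 0.771 from limma), and its lines did not overlap, the 1 member of 10 (4.63% of tested clusters as lower and 4.03% as higher). Ier3 was at 7.91 ± 0.26 (SD, n = 3) in mESCKAA and differed by 0.49 (standard error 0.19, unadjusted p = 0.028, adjusted p = 0.771 from limma). Fosb differed by -0.92 (standard error 0.62) and Fos by -0.38 (standard error 0.64). Of the members, 0 of 10 passed limma (0% of tested clusters; 1473 at an unadjusted p under 0.05) and 0 of 10 the rank product (0.248% of clusters higher, 0.0299% lower). Both comparisons with mESCWM use the same mESCWM lines, so the values of Ier2 in them are not independent.

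In this comparison 8 of 10 members were below 0, with a median of -0.20 against -0.0068 for all tested clusters. The median was 0.088 without KAA2 and 0.11 without FB1, KAA2 and WM3. Without KAA2 the differences of Fos (0.50), Egr1 (0.36), Junb (0.090), Egr2 (0.086), Atf3 (0.078) and Jun (0.055) were above 0, and that of Fosb was -0.048. Ier2 (-0.32) and Ier3 (0.37) kept their direction without it, and each did so without any other single line. Over all 3 comparisons and every alternative of the limma fit, 0 members passed, and the lowest adjusted p was the 0.476 of Egr1 given above.

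**Figure D4:**
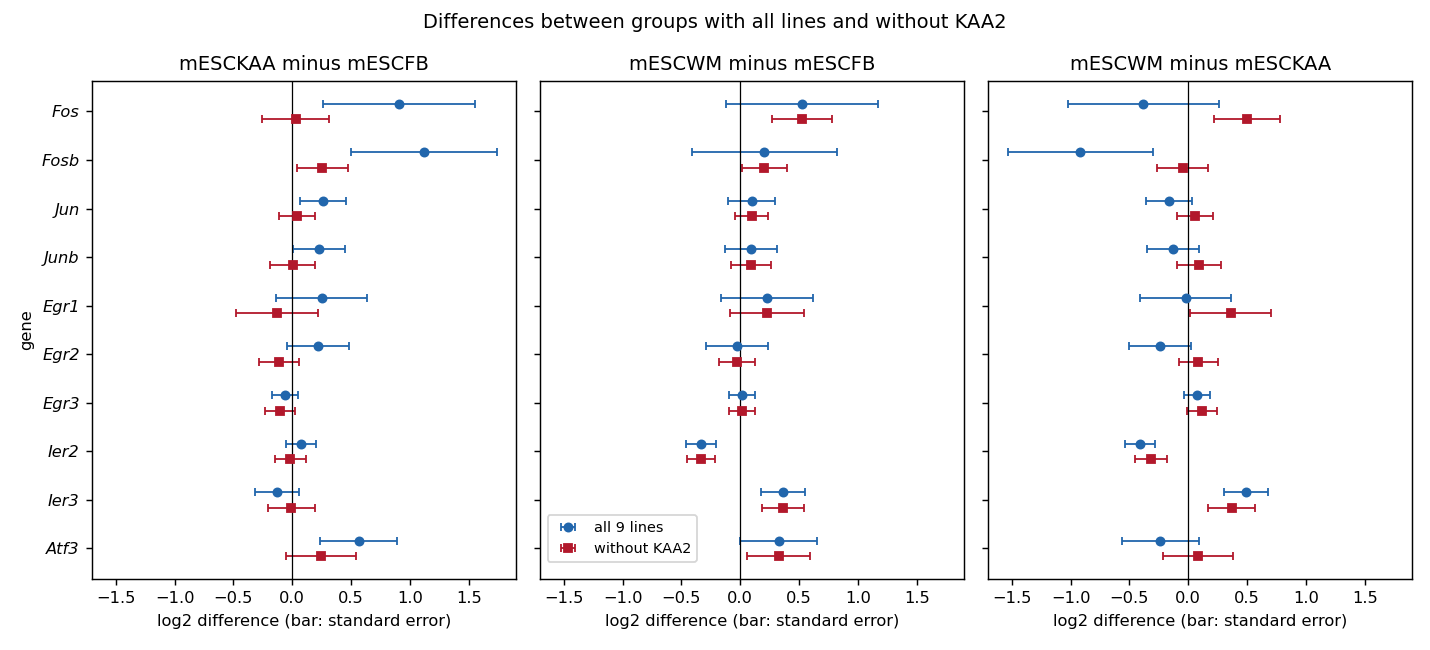
Log2 difference between groups (horizontal axis) of each gene in the 3 comparisons, with standard errors, for all 9 lines (circles) and without KAA2 (squares). Fosb moves from 1.12 to 0.25 in mESCKAA minus mESCFB, whereas Ier2 is below 0 with and without KAA2 in both comparisons of mESCWM.

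The members also differed in how they varied together over the lines. Fos, Fosb, Jun, Junb, Egr1, Egr2 and Atf3, grouped after their values were seen, had a Pearson's r above 0 in all 21 pairs over the 9 lines (median 0.81, from 0.53 to 0.94). The highest was that of Fos with Jun (0.94). Without KAA2 the median of these pairs was 0.44 (8 lines, 17 of 21 above 0). Fos kept an r of 0.85 with Egr1 and 0.81 with Jun in those 8 lines, but only 0.32 with Fosb. Ier2 and Ier3 ran against each other with an r of -0.89 over 9 lines and -0.85 without KAA2. The levels come from the same arrays, so these values describe the lines and carry no p.

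Outside the list, 8 genes with the most similar course were named from 1268 clusters with 1 symbol, a mean at or above the median and a range of at least 1 over the 9 lines. Hes1, a repressor downstream of Notch, had an r of 0.94 with the mean of the members, and was at 8.82 in KAA2, 8.10 in WM1 and 6.87 to 7.42 in the other lines. Zfp36, an immediate early gene whose product speeds the decay of AU-rich transcripts, had an r of 0.91, and was at 8.66 in KAA2 and 7.94 in WM1. Nfkbia, the inhibitor of NF-kappa B, had an r of 0.86 and ran from 6.75 in KAA1 to 7.98 in KAA2. Twist2 (0.91), Cdx2 (0.88), Rdh10 (0.85), Wnt6 (0.81) and Apela (0.80) completed the set. All 8 were highest in KAA2, which largely follows from the choice. They were picked by likeness to a mean that deviated by 0.82 in KAA2 and 0.21 in WM1. Log2 deviations were averaged without scaling, so members with a large range weigh most in that mean. Fos had an r of 0.996 with it, against 0.42 for Ier2, -0.16 for Egr3 and -0.31 for Ier3. The remaining members ran from 0.83 for Atf3 to 0.96 for Jun. Without KAA2 the r of the 8 genes ran from 0.13 for Wnt6 to 0.82 for Hes1.

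**Figure D5:**
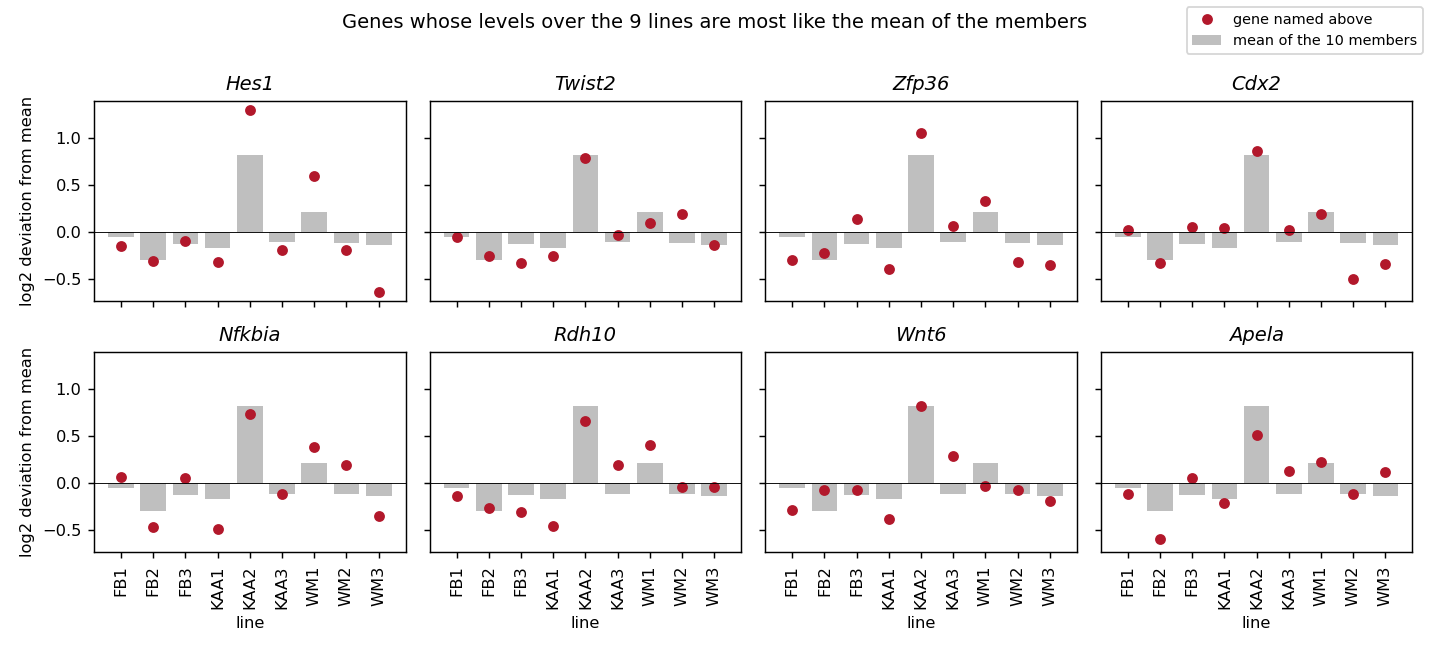
Deviation (log2) of each of the 8 most similar genes from its mean over the 9 lines (points) beside the mean deviation of the 10 members (grey bars). The genes were chosen by their r with that mean, which is highest in KAA2. All 8 genes are highest in KAA2, and Hes1, Zfp36, Cdx2, Nfkbia, Rdh10 and Apela are next highest in WM1.

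The rest of the pathway was compared through lists of related genes, in which 0 genes passed limma in any of the 3 comparisons. Of 12 relatives and partners, Egr4, the remaining Egr factor, was highest in KAA2 at 5.66 against 4.60 to 5.06 in the others. Fosl1, a Fos paralog, ran from 5.43 in WM2 to 6.66 in FB3 and was at 6.09 in KAA2, and Jund was at 7.15 to 7.54. Batf3 ran from 4.75 to 5.74 and was highest in FB1. The median difference of these genes from mESCFB was 0.10 in mESCKAA and -0.024 in mESCWM.

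Of 34 other immediate early genes, 5 were highest in KAA2 and 9 in WM1. Over all tested clusters, KAA2 was highest for 15.0% and WM1 for 13.0%, so the count of 5 was near the share of KAA2. Besides Zfp36, the largest ranges were those of Ccn2, a matricellular protein (8.40 in FB2 to 9.81 in KAA1), and Trib1, a pseudokinase (6.37 in FB2 to 7.57 in FB1), neither of which was high in KAA2. The median deviation of the 34 genes was 0.030 in KAA2 and 0.088 in WM1. Besides Zfp36, those highest in KAA2 were Ptgs2, which encodes a prostaglandin synthase (5.93, and 4.82 to 5.78 in the others), Dusp1, a phosphatase of MAP kinases (9.96, and 9.15 to 9.84), Per1, a clock gene (6.40, and 5.82 to 6.31), and Nr4a2, a nuclear receptor (4.49, and 4.05 to 4.28). The median difference of the 34 genes from mESCFB was 0.054 in mESCKAA and 0.0040 in mESCWM.

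The 14 measured kinases and factors upstream of these genes had a median deviation of -0.015 in KAA2. Among them Srf, which binds the CArG box, was at 7.38 to 8.13 and at 7.88 in KAA2. Its ETS partner Elk1 ran from 7.49 to 8.29, and the ERK-activated kinase Rps6ka3 from 5.33 to 6.13. KAA2 was the lowest line for Map2k1 (6.83, and 6.95 to 7.44 in the others). It was also lowest for Mrtfb, by the highest of its 3 clusters (5.67, and 5.93 to 6.27). For Map2k2 it was the highest line (7.93, and 7.57 to 7.87). Of the 12 ERK feedback genes 0 were highest in KAA2, where Spry4 was at 8.35, Dusp6 at 8.65, Etv4 at 7.61 and Etv5 at 9.67. Spry4 and Dusp6 inhibit the pathway and Etv4 and Etv5 are ETS factors that it induces. Their ranges over the lines were 6.98 to 8.61, 8.08 to 9.41, 7.17 to 8.35 and 9.66 to 10.24, so that KAA2 was inside each of them. The low ends for Spry4 and Dusp6 came from mESCWM. Among the mESCFB and mESCKAA lines, KAA2 was lowest for Spry4 (8.39 to 8.61 in the others) and for Dusp6 (9.02 to 9.41 in the others). KAA3 was lower than KAA2 for Etv4 (7.48) and Etv5 (9.66). Etv5 has another cluster, at 8.03 to 8.52 over the lines and at 8.16 in KAA2.

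Markers of stress and of other cells were measured beside the members. The 9 heat shock genes had a median deviation of 0.012 in KAA2. Hspa1a was highest there at 5.50 (4.84 to 5.42 in the others), while Dnajb1 and Bag3 were highest in WM1. Hspd1 was lowest in KAA2 at 10.96 (11.19 to 11.33 in the others), and so was Hsp90aa1 at 11.96 (12.03 to 12.15). Both have several clusters and are given by the highest. All 12 pluripotency markers were at 6.11 or above in every line, with Pou5f1 at 10.07 to 10.43, Sox2 at 8.62 to 9.17 and Nanog at 8.52 to 10.35. The labelled cell type was thus matched by its markers. Nanog, Esrrb (6.11 to 7.53) and Klf2 (6.46 to 7.75) varied most. In KAA2, Klf2 was the highest of the 9 lines and Dppa4 the lowest, at 7.36 against 7.51 to 8.39 in the others. Another cluster of Dppa4 was lowest in KAA2 as well, at 6.76.

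The 18 markers of feeder fibroblasts had a summed level of 101 to 102 in mESCFB, 103 to 106 in mESCKAA (106 in KAA2) and 105 to 107 in mESCWM. In KAA2, which was the highest line for 15.0% of all tested clusters, 3 of the 18 were at their highest. These were Twist2, at 5.83 against 4.72 to 5.24 in the others, Prrx1 and Col6a1 (4.68), while Thy1 was at its lowest (5.71). Of the markers, Postn (2.21 to 2.43), Lum (1.68 to 1.95), Dcn (2.91 to 3.52) and Prrx1 (2.73 to 3.36) were near the lower end of the array in all lines, while Acta2 (7.87 to 9.82), Vim (8.69 to 9.82) and Fn1 (7.42 to 8.65) were high and were highest in WM1 or WM2. Of 16 markers of differentiating cells, 7 were highest in KAA1, among them Dab2 (8.29), Gata6 (7.01) and Gata4 (6.51) of primitive endoderm, and KAA2 was at 6.33, 5.73 and 5.48 for these. Another cluster of Dab2 was at 1.72 to 2.33, near the lower end of the array. In KAA2, 3 of the 16 were at their highest, namely Cdx2, Mixl1 and Eomes, at 5.98, 5.24 and 5.44. The median deviation of the 16 markers in KAA2 was 0.049, so the list as a whole was not set apart there. The part of other cells and of handling in the levels of KAA2 was not tested, and in a bulk sample more cells with a transcript and more transcript per cell cannot be told apart.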

How the data were processed

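Total RNA of 9 lines was hybridized to Affymetrix Mouse Gene ST arrays, 1 array per line. The submitters' processing notes list R 3.1.0 and Affymetrix Expression Console, and the methods name RMA in affylmGUI. The values the authors deposited are therefore log2 levels after background correction and normalization between arrays. The genome build is not given in the sources used here. Levels ran from 0.56 to 13.3, and the medians of the arrays over the tested clusters from 4.64 to 4.70. Groups and line numbers come from the sample titles. Of 35556 transcript clusters, the platform annotation names no gene for 12146, 1 symbol for 21789 and several for 1621, and the 23410 named ones were tested. Precision is limited by how few arrays there are.

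The members and all gene lists were chosen with earlier results of these data known. Named genes are the 10 members, the 8 clusters with the highest r to their mean, up to 3 genes per list with the largest range, and Spry4, Dusp6, Etv5 and Eif2s3y. Jund, Pou5f1, Sox2, the fibroblast markers near the lower end, Mixl1, Eomes, Ptgs2, Dusp1, Per1, Nr4a2, Dppa4, Col6a1, Thy1, Uty, Kdm5d and Xist were named after their values were seen. The same holds for Map2k1, Map2k2, Mrtfb, Hspd1 and Hsp90aa1. A gene with several clusters is given by the cluster with the highest mean. The lists hold 12 relatives, 34 immediate early genes, 17 upstream genes (14 measured), 12 ERK feedback genes, 10 heat shock genes (9 measured), 12 pluripotency, 18 fibroblast and 17 lineage markers (16 measured), and 5 sex-linked genes (4 measured).

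For the differences, a mean was fitted for each group over all 9 lines by limma 3.58.1 (R 4.3.3, lmFit followed by eBayes, two-sided) and adjusted by Benjamini-Hochberg over the 23410 clusters at a threshold of 0.05. The rank product was written in numpy 2.4.6 (Python 3.11.15), with 9 pairwise differences between the lines of the groups compared, 100 permutations within arrays and a pfp under 0.05 in each direction. Tables were handled with pandas 2.3.3 and plots drawn with matplotlib 3.10.9. Limma and the rank product were tested on simulated data, where the rank product made more false calls than limma. Alternatives were other scalings, cluster sets and limma settings (trend and robust with statmod 1.5.0), a replicate block, and leaving out lines. The count of members highest in KAA2 under other scalings was added after seeing the data.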

Additional observations from a re-analysis of the deposited data

How the results depend on the processing

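The number of members passing limma was 0 in each comparison under every alternative, and the lowest adjusted p of a member was 0.476. The replicate number of the lines as a block left it at 0, with lowest adjusted p of 0.796, 0.665 and 0.564 for mESCKAA against mESCFB, mESCWM against mESCFB and mESCWM against mESCKAA. Deviations correlated above 0.1 in 5 of 9 same-numbered pairs (r from -0.013 to 0.33) and in 1 of 18 others (r from -0.24 to 0.13), and 8 of 9 lines correlated best with a line of their own number. This is a hint of pairing from the data, but not every same-numbered pair passed 0.1, and no label gives the number a meaning, so the lines were not treated as paired. By the rank product the number was 0 in each comparison, 0 to 1 in mESCKAA against mESCFB when each line was left out, with Fosb passing without KAA1. The members above the 90th percentile of within-group SD were 6, and 3 to 6 with each line left out (3 without KAA2).

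Of the 30 differences of members, 17 changed sign under at least 1 alternative, and the cause was not tested beyond the lines left out. With each line left out in turn, mESCKAA minus mESCFB ran from -0.13 to 0.50 for Egr1, from -0.11 to 0.44 for Egr2, from -0.13 to 0.0079 for Egr3 and from -0.018 to 0.15 for Ier2. For mESCWM minus mESCFB it ran from -0.051 to 0.21 for Jun, from -0.096 to 0.23 for Junb, from -0.054 to 0.48 for Egr1, from -0.15 to 0.14 for Egr2 and from -0.050 to 0.11 for Egr3. For mESCWM minus mESCKAA it ran from -0.89 to 0.50 for Fos, from -0.31 to 0.055 for Jun, from -0.32 to 0.090 for Junb, from -0.30 to 0.36 for Egr1, from -0.46 to 0.086 for Egr2 and from -0.53 to 0.078 for Atf3. Without FB1, KAA2 and WM3, Junb was at -0.083 in mESCKAA minus mESCFB, Egr2 at 0.13 and Egr3 at -0.080 in mESCWM minus mESCFB, and in mESCWM minus mESCKAA Fos was at 0.67, Fosb at 0.0019, Jun at 0.090, Junb at 0.14, Egr1 at 0.61, Egr2 at 0.071 and Atf3 at 0.12. With array weights, Egr2 was at 0.025 and Egr3 at -0.0023 in mESCWM minus mESCFB and Egr1 at 0.056 in mESCWM minus mESCKAA. With median centring, Egr3 was at -0.0028 in mESCWM minus mESCFB.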
